A study of Arabidopsis thaliana with 4 samples.

Results

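The response of leaves to submergence and recovery was compared between wild-type Arabidopsis thaliana and the myc2 mutant, gene by gene. For each gene, the log2 response of WT (R3 over air, with 1 added to each level) was subtracted from that of myc2. Genes with a mean level of at least 1 over the 4 libraries were kept, which left 17540 of 31319 loci. The WT plants were Col-0, and the mutant carried the myc2-2 allele. Plants were 4 weeks old, and each library was made from leaf RNA of 6 plants. The air libraries are labelled as taken before the submergence. The R3 libraries are labelled as taken 3 h after it. The treatment protocol instead gives 24 h of submergence in darkness with harvests at 0 h and 24 h of reoxygenation, so the 3 h rests on the sample labels. No library is labelled as a dark control in air, and submergence, darkness, reoxygenation and time of harvest cannot be told apart.

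Both genotypes have an air and an R3 library, with 1 library per group. No difference below has a replicate check, no test was possible, and no p-value is given. The difference of responses equals the myc2-to-WT gap at R3 less the myc2-to-WT gap in air, both as log2((myc2 + 1)/(WT + 1)). A gene is called higher or lower where this difference was at least 2-fold (1 on the log2 scale). The gap was placed mainly at R3 where the R3 gap made up at least 66.7% of the difference. At 33.3% or less it was placed mainly in air, and otherwise in both. This places the difference of responses, and a gene placed mainly at R3 can also differ between the genotypes in air. Levels are RPKM (mapped reads scaled to transcript length and to library depth) or FPKM, its fragment-based form, as headed for WT R3.

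MYC2 is a basic helix-loop-helix transcription factor that binds the G-box, CACGTG, and activates wound-type jasmonate genes. Without active jasmonate it is held back by JAZ repressors, which the receptor COI1 marks for breakdown once jasmonoyl-isoleucine is present. Many genes for jasmonate synthesis, the JAZ repressors and jasmonate turnover are themselves targets of this pathway, while the jasmonate-ethylene defensin branch is known to be restrained by MYC2, and salicylic acid and jasmonate signalling often act against each other.

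The leaf label and the genotype label were checked against marker levels. MYC2 read 45.9 RPKM in WT air, 91.7 FPKM at WT R3, 14.2 RPKM in myc2 air and 34.9 RPKM at myc2 R3. It was lower in both myc2 libraries than in the matching WT library, and its difference of responses was 0.26. MYC2 overlaps a gene on the other strand, and where the myc2-2 lesion lies relative to the reads is not given in the sources used here. The leaf gene RBCS1A, a small subunit of Rubisco, read 18319 in WT air, 2290 at WT R3, 13700 in myc2 air and 2345 at myc2 R3. LHCB1.2 and RCA were likewise among the abundant transcripts, at 441 or more in each library. Of 14 root and seed markers, SHR, SCR and PYK10 reached a mean level of 1, and PYK10 is described below with its level of 62.8 at WT R3. The seed storage gene CRA1 was at 0.0169 or below in every library. In units of 1000000 reads, estimated depth lay between 22.3 in myc2 R3 and 30.5 in myc2 air.

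G-boxes were looked for upstream of genes whose response was lower in myc2, and whether MYC2 acts through them was not tested. Of 19 lower genes in the lists for jasmonate synthesis, JAZ repressors and MYC-branch responses, 4 hold CACGTG within 250 bases before the annotated start, and of 9 lower flavonoid genes 4 do. The windows are shown in lower case with the G-box in capitals, 5′ to 3′ on the gene's own strand. They were read from the RefSeq TAIR10.1 assembly, as the deposited tables hold no coordinates, and each has up to 30 bases on either side of the G-box, cut at the start site or at the far end of the 250 bases.
AOS, chr5:17099596-17099631, minus strand: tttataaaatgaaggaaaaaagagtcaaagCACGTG
JAZ3, chr3:6119537-6119602, plus strand: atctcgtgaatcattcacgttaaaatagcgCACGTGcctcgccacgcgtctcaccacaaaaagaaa
JAZ8, chr1:10596312-10596351, plus strand: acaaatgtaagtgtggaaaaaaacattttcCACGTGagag
MBP1, chr1:19352861-19352926, minus strand: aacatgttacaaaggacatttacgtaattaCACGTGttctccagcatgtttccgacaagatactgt
CHS, chr5:4488226-4488278, plus strand: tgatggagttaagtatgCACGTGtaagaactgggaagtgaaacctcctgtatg
F3H, chr3:19024942-19024978, plus strand: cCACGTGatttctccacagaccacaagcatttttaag
DFR, chr5:17166033-17166076, minus strand: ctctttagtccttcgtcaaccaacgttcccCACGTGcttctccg
UGT79B1, chr5:21938532-21938597, minus strand: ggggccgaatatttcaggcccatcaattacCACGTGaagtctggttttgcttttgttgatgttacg

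The G-box begins 6 bases before the annotated start in AOS, 10 in JAZ8, 14 in DFR, 105 in MBP1, 140 in JAZ3, 171 in UGT79B1, 233 in CHS and 249 in F3H. JAZ3 and UGT79B1 each hold a pair of G-boxes in the 250 bases, and the window shows the more distant of them. In a window from 250 bases before to 50 after the start, CACGTG, which reads the same on both strands, lay in 9.01% of 17430 promoters of genes past the filter. It lay in 14.6% of 212 promoters of lower genes whose gap was mainly at R3, in 8.72% of 321 with a gap in both conditions and in 7.71% of 376 with a gap mainly in air. Among higher genes it lay in 8.30% of 241. Whole lists, which include their lower members, had shares near those of the lower members in 2 cases. These were 43.8% of 16 flavonoid genes against 44.4% of the 9 lower, and 9.52% of 21 MYC-branch genes against 10% of the 10 lower. In the JAZ list the shares were 36.4% of 11 against 50% of 4, and in jasmonate synthesis 11.8% of 17 against 20% of 5. The heat shock element core GAANNTTC lay in 11.5% of all promoters, in 17.43% of the promoters of higher genes and in 9.46% of those of lower genes. AAAATATCT, the evening element of clock-controlled genes, lay in 3.14%, 2.90% and 2.64%, and GCCGCC, the element of ethylene response factors, in 2.72%, 2.07% and 1.54%, in the same order. These shares describe letters in a window and no binding was measured.

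Across all genes, more responses were lower in myc2 than higher at the deposited scale, and the placement of the gap differed between the 2 directions. Of 17540 genes, 264 (1.51%) were higher and 912 (5.2%) were lower. Among the higher genes the gap was mainly at R3 for 209 (1.19% of all genes tested), in both for 40 (0.228%) and mainly in air for 15 (0.0855%). Among the lower genes it was mainly at R3 for 214 (1.22%), in both for 322 (1.84%) and mainly in air for 376 (2.14%). The median gap of the higher genes was -0.07 in air and 1.19 at R3, whereas that of the lower genes was 0.78 in air and -0.52 at R3. Over all genes the median gap was 0.21 in air and 0.04 at R3. Because the difference is the R3 gap less the air gap, an air gap above 0 among lower genes follows in part from how they were called. In leaf RNA, a change in how many cells of a type were sampled and a change in RNA per cell cannot be told apart.

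The scale of the libraries set part of these counts. The median difference of all genes was -0.16, with a median gap of 0.21 in air and 0.04 at R3, and list medians below are read beside these. With libraries rescaled by a median of ratios, 498 genes were higher and 525 lower, and the median difference was 0.07. The higher share of calls thereby moved from 22.4% to 48.7%. The lower genes were then placed mainly at R3 for 166, in both for 183 and mainly in air for 176. With each library rescaled to an equal sum, 246 were higher and 1784 lower, a higher share of 12.1%. Under each of 7 other settings (a pseudocount of 0.1 or 5, no filter, a mean of at least 5 and 3 rescalings of the libraries), 90 of the higher and 243 of the lower genes stayed called.

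**Figure D1:**
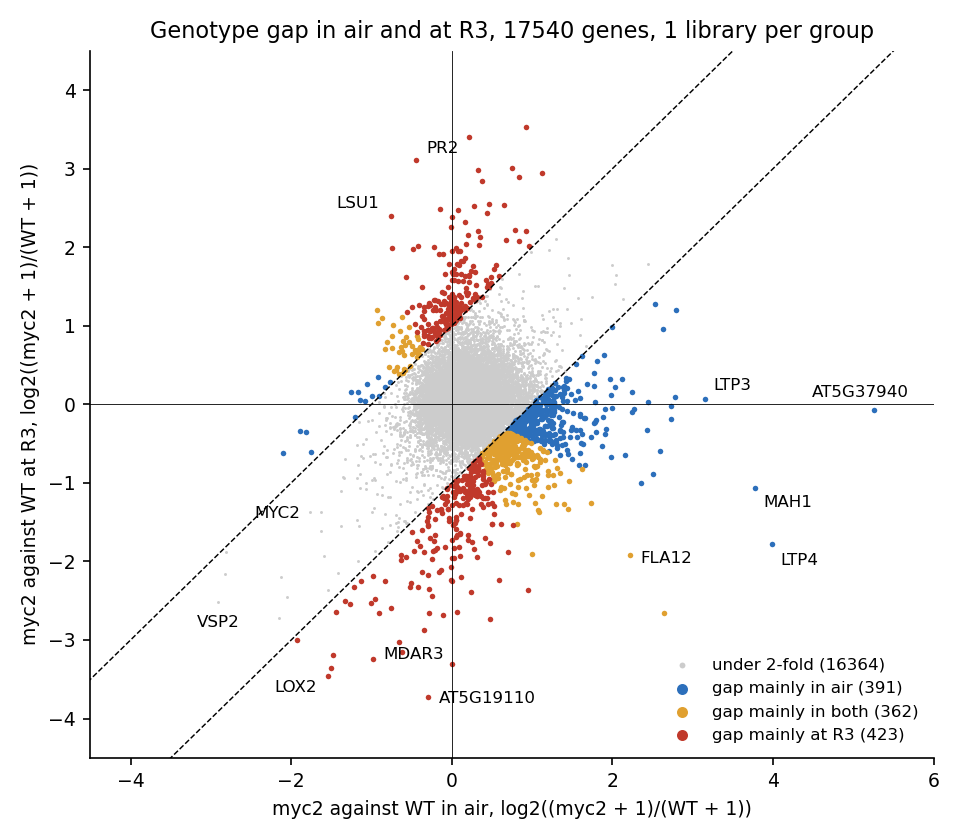
Each point is 1 gene, with the log2 gap of myc2 to WT in air on the x axis and at R3 on the y axis; dashed lines mark a difference of responses of 1 and -1, and colours mark where the gap of called genes lay. The 264 higher genes lie above the upper line mostly near an air gap of 0, while the 912 lower genes spread from a negative R3 gap (LOX2, AT5G19110) to a positive air gap (LTP3, AT5G37940).

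The responses behind the higher and lower genes were also counted. A call is the myc2 response less the WT response, so some patterns cannot occur. No higher gene can be up in WT only, for example, and no lower gene up in myc2 only. Of the 264 higher genes, 130 were at least 2-fold up at R3 in both genotypes, 59 were up in myc2 only, and 34 were at least 2-fold down in WT only. Of the 912 lower genes, 346 were up in WT only, 169 were down in myc2 only and 163 were up in both. In 178 lower genes neither response reached 2-fold. Genes up in both made up 49.2% of the higher, 17.9% of the lower and 21.2% of all genes. Opposite responses of at least 2-fold were counted for 13 lower and 2 higher genes. Just inside the threshold lay LSU4 at 1.001 and AGD8 at -1.0002, and just outside it CYP81D8 at 0.999 and TRM15 at -0.995.

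Genes for jasmonate synthesis had a lower response in myc2, and the gap lay mainly at R3. Of 17 list members past the filter, 5 were lower and 0 higher, 4 of them mainly at R3. Of the 17 differences, 16 were below 0 (list median -0.83). The median gap of the list was -0.15 in air and -0.89 at R3. LOX2, the plastid 13-lipoxygenase that starts the pathway in wounded leaves, read 553 in WT air, 367 at WT R3, 190 in myc2 air and 32.5 at myc2 R3. Its myc2 level was below WT in both conditions and further below it at R3, with a difference of -1.92. AOS, allene oxide synthase, read 220 in WT air, 432 at WT R3, 94.2 in myc2 air and 85.3 at myc2 R3, so that only WT R3 exceeded its own air library. AOC2, an allene oxide cyclase, read 373, 399, 154 and 68.0 in the same order, and its relative AOC3 read 2.01, 128, 2.18 and 58.9. AOC3 was alike in both air libraries and apart at R3. LOX6 differed in kind: at 4.67 in WT air, 17.61 at WT R3, 8.47 in myc2 air and 9.05 at myc2 R3, it was above WT in air and below WT at R3. LOX4 was the member with a difference above 0, at 0.35.

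The JAZ repressors showed the same placement. Of 11 past the filter, 4 were lower, 0 higher, and all 4 gaps were mainly at R3, with a list median of -0.83. The median gap of the list was below 0 in both conditions, at -0.56 in air and -1.40 at R3. JAZ10 read 2.92 in WT air, 55.5 at WT R3, 0.954 in myc2 air and 8.83 at myc2 R3, a difference of -1.52. JAZ8 read 0.366, 11.3, 0.483 and 3.66 in the same order, with the air libraries alike. JAZ3 read 5.17, 17.9, 4.68 and 6.23, and JAZ6 read 28.9, 77.2, 26.5 and 33.3. In each of these 4 genes WT R3 was the highest library. JAZ10 overlaps a gene on the other strand, and the use of strand in the authors' quantification is not given in the sources used here. Factors of the jasmonate signalling core, which includes the JAZ adaptor NINJA and the co-repressor TPL, gave 0 calls among 10 genes and a median of -0.38.

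Genes downstream of MYC2, grouped as the MYC branch of the jasmonate response, gave 10 lower and 1 higher among 21 past the filter. All 10 lower gaps were mainly at R3, and the list median was -0.89. Most members were already below WT in air, with 2 of the 21 above it. The median gap of the list was -0.91 in air and -1.88 at R3. CYP94B3, which hydroxylates and so inactivates jasmonoyl-isoleucine, read 0.344 in WT air, 25.6 at WT R3, 0.0581 in myc2 air and 2.65 at myc2 R3, a difference of -2.52. The jasmonic acid oxidase JOX4 read 1.003, 64.9, 0.266 and 7.07 in that order, and its relative JOX3 read 2.79, 46.1, 1.83 and 8.43. WT R3 stood above the other 3 libraries in all of these genes of jasmonate turnover. CLH1, a chlorophyllase induced by jasmonate, read 202, 243, 107 and 37.7, so its level at myc2 R3 was below that in myc2 air. TAT3, a tyrosine aminotransferase, read 22.8, 370, 7.72 and 58.3, and ST2A, a sulfotransferase of hydroxylated jasmonate, read 2.92, 139, 0.988 and 29.8.

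A much lower level in myc2 did not by itself give a difference of responses. VSP2, a vegetative storage protein and a standard marker of this branch, read 234 in WT air, 150 at WT R3, 30.1 in myc2 air and 25.4 at myc2 R3. Its gap was -2.92 in air and -2.52 at R3, and the difference was 0.40. The terpene synthase TPS03 was the higher member, at 8.51, 0.00, 3.49 and 0.0288, with its gap in air. Its R3 libraries were listed at or near 0. Rescaled to the median of ratios, the lower calls were 2 in jasmonate synthesis, 2 in the JAZ list and 5 in the MYC branch, against 5, 4 and 10 as reported, and with a pseudocount of 5 the JAZ list gave 2.

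**Figure D2:**
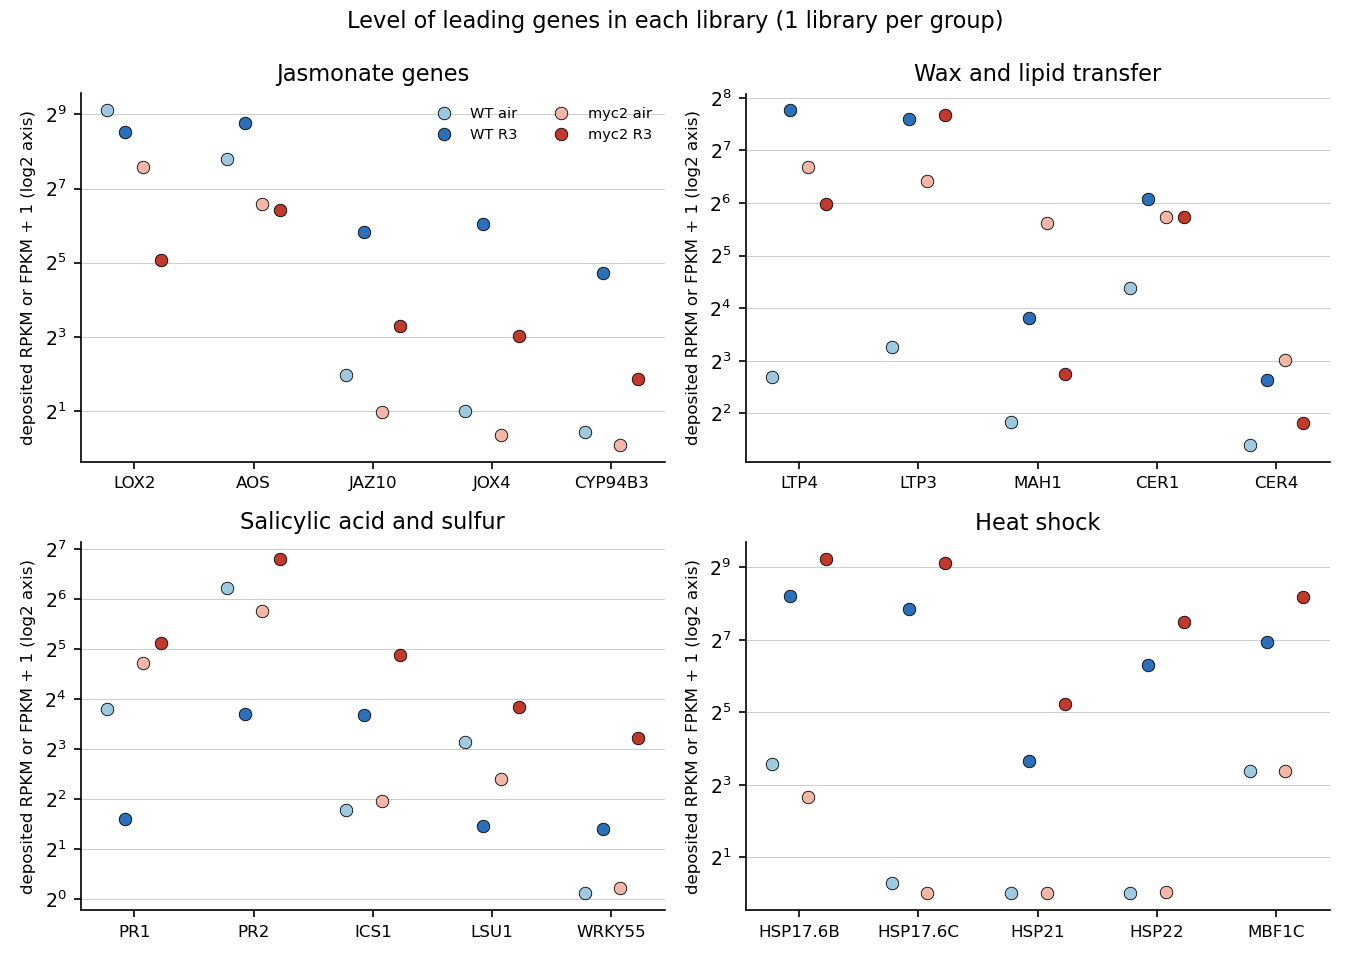
Level plus 1 (log2 axis, deposited RPKM or FPKM) of 5 genes in each of 4 groups, with 1 point per library and no replicates. The jasmonate genes JAZ10, JOX4 and CYP94B3 peak at WT R3, LTP4, LTP3 and MAH1 are lowest in WT air, PR1, PR2 and LSU1 are lowest at WT R3, and the heat shock genes HSP17.6B, HSP17.6C, HSP21, HSP22 and MBF1C are highest at myc2 R3.

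The defensin branch, co-induced by jasmonate and ethylene, gave 6 lower and 1 higher among 9 genes, but from mixed libraries: 3 lower gaps were mainly in air, 2 in both and 1 at R3. All 9 members were above WT in air. PDF1.2A, a plant defensin, read 14.3 in WT air, 11.8 at WT R3, 20.3 in myc2 air and 0.930 at myc2 R3, a difference of -3.21 that came from the low myc2 R3 library. PDF1.2C read 3.65, 6.34, 8.28 and 0.955, and PDF1.2B read 1.97, 5.39, 9.34 and 3.99, with myc2 air the highest library in both. PR4, a chitin-binding protein, read 37.3, 128, 75.5 and 96.3, and its gap was mainly in air. THI2.1, a thionin, was the higher member with 12.7, 1.93, 13.6 and 5.36. Another thionin gene, AT1G66100, was among the 12 lowest differences of all genes at 657 in WT air, 177 at WT R3, 658 in myc2 air and 17.0 at myc2 R3 (-3.31), with both air libraries alike.

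Flavonoid and anthocyanin genes were lower as a group. Of 16 past the filter, 9 were lower and 0 higher, 6 of them mainly at R3 and 3 in both, with all 16 differences below 0 and a median of -1.13. LDOX, which makes anthocyanidins, read 8.31 in WT air, 14.0 at WT R3, 9.97 in myc2 air and 1.87 at myc2 R3, a difference of -2.63. DFR, dihydroflavonol reductase, read 6.80, 8.91, 9.40 and 2.04. The anthocyanin xylosyltransferase UGT79B1 read 3.81, 3.48, 4.03 and 0.421. In these 3 genes the other libraries lay close together and myc2 R3 stood below them. CHS, chalcone synthase, the entry enzyme, read 164, 81.4, 222 and 35.0, so both genotypes were lower at R3 than in air and myc2 more so. UGT78D1, a flavonol rhamnosyltransferase, read 20.3, 37.7, 32.7 and 15.6, above WT in air and below it at R3. With a pseudocount of 5 the list gave 5 lower calls.

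Antioxidant genes, the subject of the study's title, mostly had differences under 2-fold, as did most genes. Over all genes 1.51% were higher and 5.2% lower, so 0 calls in lists this short do not set them apart. Ascorbate synthesis gave 0 calls among 12 genes (median -0.22), and glutathione synthesis and peroxidases 0 among 8. Tocopherol synthesis gave 0 among 9, and superoxide dismutases and catalases 0 among 11. The dismutase FSD1, the catalase CAT2 and the peroxidase GPX6 had differences of 0.92, 0.83 and 0.82, and the catalase CAT3 -0.90. Rescaled to the median of ratios, 2 of the 11 dismutases and catalases were higher, and with an equal sum 1 was lower. VTC1, which makes GDP-mannose, read 35.3 in WT air, 121 at WT R3, 43.2 in myc2 air and 90.9 at myc2 R3, with a difference of -0.69. VTC2, GDP-L-galactose phosphorylase and the main control step of ascorbate synthesis, read 138, 341, 114 and 273, and its difference was -0.04. The 2 myc2 levels of VTC2 were both below WT by about the same log2 gap, -0.28 in air and -0.32 at R3. GSH1, glutamate-cysteine ligase, read 42.3, 98.3, 44.8 and 61.7 (-0.75), and GSH2, glutathione synthetase, read 35.7, 38.8, 38.7 and 26.3 (-0.65). Both were alike in air and lower in myc2 at R3, without reaching 2-fold.

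The exceptions were in ascorbate recycling. MDAR3, a monodehydroascorbate reductase, read 1.69 in WT air, 104 at WT R3, 0.367 in myc2 air and 10.03 at myc2 R3, a difference of -2.27 with the gap mainly at R3. MDAR2, of the same family, read 18.5, 316, 25.4 and 197, and its difference of -1.12 came from both conditions. They were the 2 lower genes among 15 of the ascorbate-glutathione cycle, where 0 were higher. DHAR2, a dehydroascorbate reductase, read 24.6, 87.6, 23.7 and 118, a difference of 0.48 in the other direction. Among 20 genes of the oxidative stress list, GSTU24, a glutathione transferase, was higher at 2.41, 134, 1.62 and 265, and ERF109, a redox-responsive transcription factor, was lower at 0.0742, 4.45, 0.0948 and 1.65. Methionine sulfoxide reductases, which repair oxidised methionine, were lower for 3 of 9 genes, while the median difference of the 9 was 0.18. Of the 3, MSRB9 read 4.82, 304, 5.09 and 48.0 and MSRB6 read 46.0, 25.9, 69.7 and 4.73, both picked after their values were seen.

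Heat shock genes gave the most higher calls of the 35 lists. Of 26 past the filter, 10 were higher and 0 lower, 9 of the 10 gaps lay mainly at R3, and all 26 members were above WT at R3. The list median was 0.60, and the summed level of all 28 members was 74.8 in WT air, 4355 at WT R3, 78.9 in myc2 air and 8135 at myc2 R3. HSP17.6C, a small cytosolic heat shock protein, read 0.211 in WT air, 231 at WT R3, 0.00 in myc2 air and 557 at myc2 R3, a difference of 1.54. HSP17.6A read 0.217, 413, 0.0520 and 977, and the plastid chaperone HSP21 read 0.00, 11.5, 0.00 and 36.4. MBF1C, a transcriptional coactivator of heat tolerance, read 9.50, 122, 9.47 and 289. In these 4 genes the air libraries were at like levels and both R3 libraries were high, myc2 the higher. HSP17.6B, at 10.9, 295, 5.28 and 604, had its gap in both conditions, since myc2 air was below WT air. HSP18.2 had a difference of -0.23, at 2.05, 239, 8.10 and 612: its gap was larger in air (1.58) than at R3 (1.35). Chaperones of the endoplasmic reticulum gave 0 calls among 14, with a median of -0.42.

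Salicylic acid defence genes held the highest difference of all. PR2, a beta-1,3-glucanase used as a marker of salicylic acid responses, read 73.4 in WT air, 11.98 at WT R3, 53.5 in myc2 air and 111 at myc2 R3, a difference of 3.56. PR1 read 12.9, 2.04, 25.4 and 34.2 (2.61). Both were lower at R3 than in air in WT and higher at R3 than in air in myc2. ICS1, isochorismate synthase, which makes the precursor of salicylic acid, read 2.46, 11.8, 2.88 and 28.6 (1.05). These 3 genes were the higher calls among 14, with 0 lower and a list median difference of 0.08. In the list 9 differences were above 0 and 5 below. EPS1, an acyltransferase of the list, read 3.35, 19.9, 4.14 and 11.4, and its difference of -0.99 fell just short of a lower call. The median gap of the 14 was 0.62 at R3, where 12 were above WT, against 0.04 over all genes. In air it was already 0.36, with 13 above WT, against 0.21 over all genes. With a pseudocount of 0.1 or an equal sum, 2 of the 14 were lower. Without the 50 highest genes of each library, 2 of 15 past the filter were lower. WRKY55 was the 1 higher gene among 18 stress WRKY factors, at 0.0815, 1.65, 0.172 and 8.36.

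The other genes among the 12 highest differences had their gap mainly at R3, except PDF1.4. LSU1, a protein induced by sulfur limitation, read 7.90 in WT air, 1.75 at WT R3, 4.26 in myc2 air and 13.5 at myc2 R3 (3.15), so R3 was below air in WT and above it in myc2. PNP-A, a plant natriuretic peptide, read 6.17, 6.10, 11.1 and 56.3 (2.26), and AT5G10760, an aspartyl protease, read 13.5, 15.9, 16.6 and 95.9 (2.25). In both, myc2 R3 stood apart from 3 libraries at similar levels. AT4G37290, of unknown function, read 0.0596, 2.01, 0.229 and 30.9 (3.19), and AT1G51920 read 0.195, 9.46, 0.187 and 48.8 (2.26). AT3G55790, AT3G28510, AT5G46871 and AT2G14247 had differences of 2.63, 2.46, 2.19 and 2.09, with their highest level at myc2 R3. PDF1.4, a defensin-like gene at 3.38, 19.5, 1.297 and 46.0 (2.13), was the gene of the 12 highest whose gap was placed in both. AT2G14247 overlaps a gene on the other strand, and 11.2% of the 50-base words of AT5G46871 also occur in AT5G46874, so reads of these could have been shared.

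The wax and lipid transfer genes gave the most lower calls of the 35 lists, and the gap was already present in air. Of 19 past the filter, 14 were lower and 0 higher, 8 mainly in air and 6 in both, and none mainly at R3. All 19 were above WT in air, with a median gap of 0.995 in air and -0.40 at R3. LTP4, a lipid transfer protein (chr5:23924990-23925957), read 5.48 in WT air, 216 at WT R3, 102 in myc2 air and 62.3 at myc2 R3. WT air was the low library, and the difference of -5.77 was the lowest of all genes. LTP3, its neighbour (chr5:23928954-23929816), read 8.61, 193, 84.7 and 203, so the 2 genotypes met at R3. MAH1, the midchain alkane hydroxylase of wax synthesis, read 2.59, 13.1, 48.2 and 5.70 (-4.85), with myc2 air as the high library.

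Other genes of wax synthesis had differences nearer to 0 than MAH1. CER1, needed to make wax alkanes, read 19.8 in WT air, 66.3 at WT R3, 52.0 in myc2 air and 52.2 at myc2 R3 (-1.69). CER4, which makes primary alcohols, read 1.64, 5.22, 7.14 and 2.51 (-2.45), and the wax exporter ABCG11 read 6.94, 50.8, 14.8 and 31.1 (-1.69). KCS6, which elongates the chains, read 111, 297, 181 and 224 (-1.10). For these genes WT air was the lowest of the 4 libraries and myc2 air already stood above it. LTP2 did not follow, with a difference of 0.02 at 7.67, 659, 9.46 and 804. No promoter of the 19 held CACGTG in the 300 bases searched.

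Growth-related genes were also higher in myc2 air than in WT air. Of 13 auxin response genes 6 were lower and 0 higher, with 4 gaps in both, 1 at R3 and 1 in air, and all 13 were above WT in air and below it at R3. IAA19, an early auxin-induced repressor, read 1.51 in WT air, 15.3 at WT R3, 4.74 in myc2 air and 6.85 at myc2 R3 (-2.25). Of 11 genes of cell wall expansion 5 were lower and 0 higher. EXPA5, an expansin, read 24.6, 13.0, 47.0 and 9.20 (-1.36), and XTH22, a wall-modifying transglucosylase, read 13.0, 37.6, 29.7 and 39.3 (-1.06). FLA12, a fasciclin-like arabinogalactan protein known from secondary walls, read 2.32, 21.5, 14.5 and 4.96 (-4.14). AT1G72230, a cupredoxin, and ADS4, a fatty acid desaturase, had differences of -3.36 and -2.92, both mainly in air. With a pseudocount of 5, the auxin and cell wall lists each gave 2 lower calls.

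Markers of dividing cells and of floral organs were examined beside these lists. All 11 cell division genes past the filter were above WT in myc2 air, with a median gap of 0.93 in air and 0.15 at R3. The summed level of all 12 list members was 59.1 in WT air, 17.7 at WT R3, 121 in myc2 air and 27.2 at myc2 R3. KNOLLE, a syntaxin of dividing cells, read 9.03, 0.563, 24.1 and 1.12, and CYCB1;2, a mitotic cyclin, was the 1 lower call at 2.64, 0.0913, 7.07 and 0.132. The count of lower calls among these genes depended on the setting, from 0 with a pseudocount of 5 to 4 with a pseudocount of 0.1. Of 4 floral markers past the filter, 3 were above WT in air and 4 at R3, with median gaps of 0.90 and 0.64 and 0 calls. SEP1 was the exception in air, with a gap of -0.43. All 7 floral list members together summed to 6.45 in WT air, 13.7 at WT R3, 12.1 in myc2 air and 23.4 at myc2 R3. The floral identity genes AP1 and AG stayed at 1.096 or below in every library. Whether the leaves of the 2 air libraries differed in the share of young or dividing tissue, and the part of this in the wax, auxin and wall results, was not tested.

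**Figure D3:**
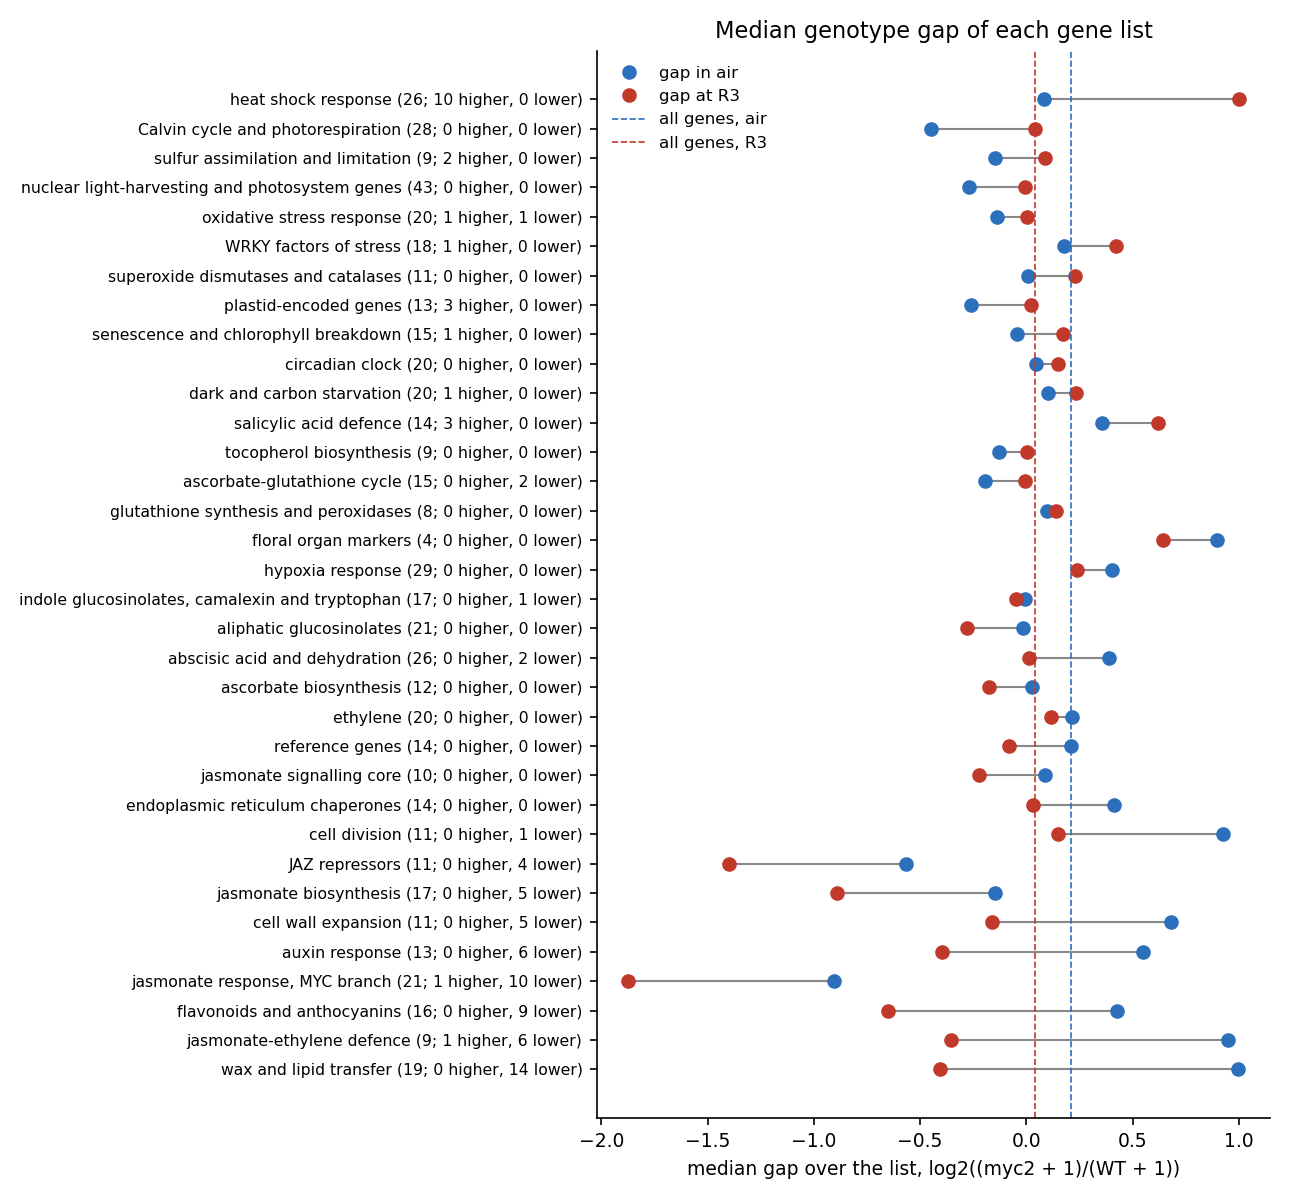
Median log2 gap of myc2 to WT over each gene list, in air (blue) and at R3 (red), with dashed lines for the medians of all genes (0.21 in air, 0.04 at R3); labels give genes past the filter and calls. The MYC branch, JAZ and synthesis lists are drawn out to negative R3 gaps, the wax, defensin and wall lists start from positive air gaps of up to 0.995, and heat shock reaches 1.002 at R3.

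Several genes known from the ER body, a store of beta-glucosidases in Arabidopsis and its relatives, had lower responses. They were picked after their values were seen, apart from PYK10 and JR1, and no count over a list of such genes is given. PYK10, its main beta-glucosidase, read 2.91 in WT air, 62.8 at WT R3, 6.54 in myc2 air and 11.4 at myc2 R3 (-3.30), and NAI2, which is needed to form the body, read 1.62, 19.6, 2.71 and 6.15 (-2.03). PYK10 is used as a root marker too and overlaps a gene on the other strand. A run of 6 lower genes on chromosome 3 (chr3:5566083-5599224) holds jacalin-related lectins: NSP1, PBP1, JAL31, JAL33, JAL34 and JR1. Runs were traced over genes past the filter, so loci below it can lie between the members. PBP1 (AT3G16420), the PYK10-binding protein, read 34.1, 260, 41.7 and 71.6 (-2.13). NSP1, a nitrile-specifier protein of glucosinolate breakdown, read 25.8, 143, 26.2 and 39.7 (-1.85), and JAL34 read 6.92, 35.3, 7.08 and 8.32 (-1.99). In these 3 the air libraries were near each other and WT R3 was the high library. JR1, a jasmonate-responsive lectin, read 41.5, 96.4, 37.8 and 37.8. Of the 50-base words of NSP1, 27.5% occur in AT3G16410 and AT3G16390, so its level could include their reads.

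Another run, of 5 lower genes on chromosome 5 (chr5:15107124-15160314), behaved otherwise. AT5G37940, a zinc-binding dehydrogenase, read 0.307 in WT air, 10.6 at WT R3, 48.9 in myc2 air and 10.09 at myc2 R3 (-5.33). The R3 libraries were alike, with WT air below them and myc2 air above them. Its log2 response was 3.15 in WT and -2.17 in myc2. AT5G37950 read 0.276, 4.66, 6.24 and 2.07, AT5G37970 read 0.00, 0.972, 5.04 and 0.309, and AT5G38000 read 0.241, 2.71, 5.70 and 1.95. These 4 gaps were mainly in air. AT5G38010, a glycosyltransferase, read 0.866, 13.1, 5.18 and 4.88 (-2.99), with the gap in both. Among the 50-base words of AT5G37940, 24.4% occur in other loci, chiefly AT5G38000. Counting only genes past the filter, 15.8% of 241 higher and 14.6% of 909 lower genes had an adjacent gene called the same way. Over all genes tested the shares were 2.72% and 10.103%.

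**Figure D4:**
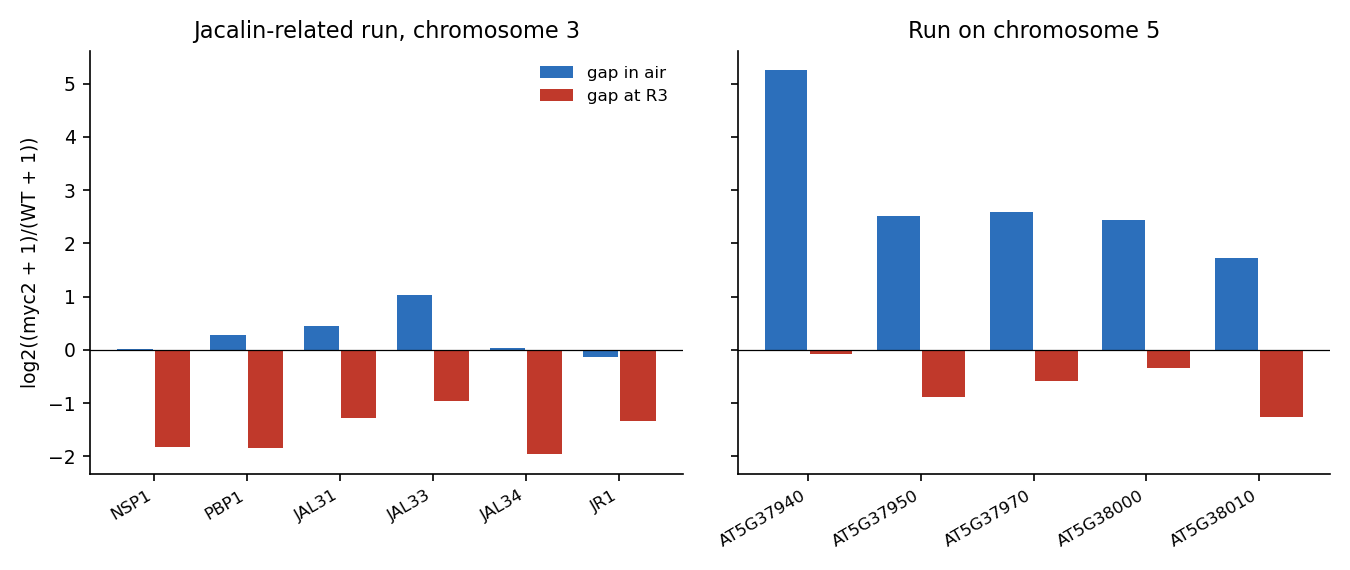
Log2 gap of myc2 to WT in air (blue bars) and at R3 (red bars) for the 2 longest runs of lower genes. Runs count only genes past the filter, shown in chromosome order and with 1 library per group. On chromosome 3 the R3 gaps of NSP1, PBP1 and JAL34 lie at -1.83, -1.85 and -1.96 with air gaps near 0, whereas on chromosome 5 the air gap of AT5G37940 reaches 5.26 with an R3 gap of -0.07.

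No gene of the 2 nuclear photosynthesis lists reached a 2-fold difference, but most differences were above 0. Light-harvesting and photosystem genes gave 0 calls among 43, and Calvin cycle and photorespiration genes 0 among 28. Of the 43 light-harvesting and photosystem genes, 38 had differences above 0, with a median of 0.25 against -0.16 over all genes. All 28 Calvin cycle and photorespiration genes had differences above 0, with a median of 0.48. For the 28, this came from air, where all were below WT (median gap -0.45). RBCS2B, another Rubisco small subunit, read 4102 in WT air, 541 at WT R3, 2720 in myc2 air and 600 at myc2 R3 (0.74). Hypoxia genes gave 0 calls among 29 with a median of -0.06. The fermentation gene ADH1 read 3.32, 160, 5.47 and 147 (-0.70), and HB1, a haemoglobin, read 0.840, 79.5, 3.76 and 129 (-0.68), both with myc2 air above WT air. The clock list gave 0 calls among 20, the ethylene list 0 among 20 and aliphatic glucosinolate genes 0 among 21. Of 17 genes for indole glucosinolates, camalexin and tryptophan, the factor MYB34 was the 1 lower call, at 10.6, 30.3, 7.21 and 9.12. Abscisic acid and dehydration genes gave 2 lower calls among 26, CYP707A1 and RD22. With 1.51% higher and 5.2% lower over all genes, counts this small in these lists do not set them apart. The abscisic acid count also moved with the setting. It went from 1 lower call with the median of ratios to 6 with a pseudocount of 0.1. The reference genes gave 0 among 14 with a median of -0.33.

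Senescence and dark-starvation lists gave 1 higher call each. SAG13, a senescence-associated gene, read 17.84 in WT air, 108 at WT R3, 14.8 in myc2 air and 212 at myc2 R3 (1.22). DIN2, a dark-induced glucosidase, read 0.0742, 8.82, 0.0237 and 23.0 (1.36). Both were alike in air and higher in myc2 at R3. In the sulfur list GGCT2;1, which breaks down glutathione, was higher at 4.01, 0.273, 1.09 and 0.418 (1.42) because of its higher level in WT air, so its gap had another source than that of LSU1.

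Of 69 plastid loci past the filter, 20 were higher, 1 was lower and 48 were not called. Of the 20, 12 had the gap mainly at R3 and 8 in both. In the plastid list 3 of 13 genes were higher, with a median of 0.16, and 5 differences were below 0. Plastid loci made up 4.46% of the summed level in WT air, 3.11% at WT R3, 3.96% in myc2 air and 7.46% at myc2 R3. ATCG00220 read 9165, 6722, 8185 and 25348, and psbD, a photosystem II reaction centre protein, read 174, 75.6, 97.0 and 124 (1.54). Without ATCG00220 the summed level of the other 68 plastid loci was 18724 in WT air, 9698 at WT R3, 16069 in myc2 air and 18199 at myc2 R3, so that myc2 R3 was not above WT air, and the shares were 3.04%, 1.86%, 2.66% and 3.26%. Whether this share is a feature of the leaves or of that 1 library was not tested. With nuclear loci only and each library set to an equal sum, an alternative added after seeing the data, 275 genes were higher and 1531 lower.

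The response difference also moved with transcript length. Over 10 bins of genes by exon length, the median difference went from 0.00 in the shortest bin (median 761 bases) to -0.36 in the longest (3863 bases). The R3 gap carried it, going from 0.27 to -0.16, while the air gap went from 0.27 to 0.20. The share of higher genes was 5.57% in the shortest bin and 0.00% in the longest. Higher genes had a median exon length of 1048 bases against 1771 for all genes, and the heat shock list had 1183. With each gap taken less the median of genes of like exon length, a choice made after seeing the data, 219 genes were higher and 949 lower, and 210 and 826 of these were among the genes counted above. The heat shock list then gave 10 higher, the wax list 15 lower, the MYC branch 10 lower and the flavonoid list 9 lower.

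**Figure D5:**
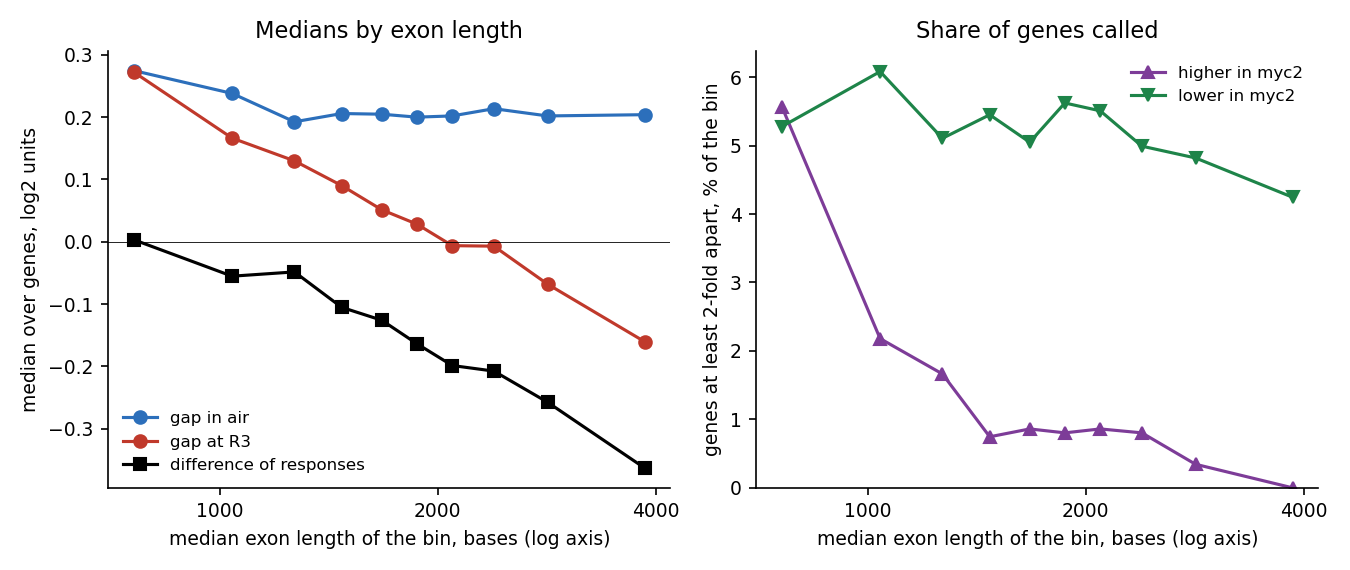
Left, median gap in air, gap at R3 and difference of responses over 10 bins of genes by exon length (x axis in bases, log scale); right, the share of each bin at least 2-fold higher or lower in myc2. The R3 gap falls from 0.27 to -0.16 with length while the air gap stays between 0.27 and 0.19, and the share of higher genes drops from 5.57% to 0.00%.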

How the data were processed

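Leaf RNA sequencing of 4 libraries, 1 per group, was used as deposited by the authors, with 1 value for each of 31319 loci. The tables other than that of WT R3 hold RPKM values, per the names the authors gave the deposited tables, and the WT R3 column is headed FPKM, per the file headers. All 4 were used as the same unit. Per the submitters' processing notes, TopHat, Cufflinks and the build TAIR10 were used, and strand use is not given in the sources used here. The values hold no counts. Depth was taken from the commonest low value of level times exon length, read as 1 read, and is approximate: 15.5% to 17.58% of low genes lay within 0.02 of whole reads.

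Log2 differences were computed with a pseudocount of 1, which understates changes of low genes, and a mean of at least 1 (Python 3.11.15, pandas 2.3.3, numpy 2.4.6, matplotlib 3.10.9). The median counting error of the difference was 0.17 for higher and 0.14 for lower genes, which covers counting only. The computation was checked on simulated data. Exons, positions and promoters came from RefSeq TAIR10.1, matched by locus tag (30622 of 31319 loci). Named genes are MYC2, the 12 highest and 12 lowest differences at a mean of at least 5, up to 4 members of each list with the largest differences and the largest in the other direction, with VTC1, VTC2, GSH1, GSH2, VSP2, LOX2 and ADH1 always taken. Other members of the lists that were called, and genes said to be so, were named after their values were seen. The members and the 35 lists were chosen with earlier results of these data known. Alternatives changed the pseudocount, the filter, the scale and the share that places the gap.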

Additional observations from a re-analysis of the deposited data

How the results depend on the processing

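As reported, 264 genes were higher (209 at R3, 40 both, 15 air) and 912 lower (214 at R3, 322 both, 376 air). A pseudocount of 0.1 gave 1538 lower (515 both, 759 air), with 101 higher in both and 36 in air. A pseudocount of 5 gave 131 higher (113 at R3, 13 both, 5 air) and 334 lower (110 at R3, 118 both, 106 air). A mean of at least 5 gave 589 lower (140 at R3, 234 air) and 6 higher in air. The median of ratios gave 498 higher (168 both, 67 air) and 525 lower (183 both, 176 air). An equal sum gave 1784 lower (383 at R3, 755 both, 646 air). Without the 50 highest genes of each library it gave 407 higher (90 both, 48 air) and 1397 lower (343 at R3, 503 both). Nuclear loci only, added after seeing the data, gave 1531 lower (332 at R3, 587 both, 612 air). The other counts stayed within 1.5 times, no called gene that the naming rule took changed sign, list medians taken less that of all genes changed sign for 8 lists close to it (hypoxia, abscisic acid, both glucosinolate lists, glutathione, floral markers, ascorbate and ethylene), and the cause of these moves was not tested. Of 14 lists with 0 calls as reported, 10 gave calls under at least 1 setting, at most 3 in a direction (hypoxia lower with a pseudocount of 0.1, reference genes lower with an equal sum). Jasmonate synthesis ranged from 2 to 8 lower, cell division from 0 to 4, abscisic acid from 1 to 6, flavonoids from 5 to 12, auxin from 2 to 7, cell wall from 2 to 7 and wax from 10 to 16, and heat shock from 7 to 12 higher. Depth limits the low genes, for which the pseudocount sets much of the difference. No paired analysis was possible because each group is 1 library, and for the same reason no library could be left out.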

Other observations

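Genes were also grouped by the family part of their RefSeq product names, after their values were seen, which gave 339 families with at least 8 genes past the filter. The shares to read them by are 1.51% higher and 5.2% lower over all genes tested. Among the families with the largest share of lower genes, light-dependent short hypocotyls proteins, which act at organ boundaries, gave 5 of 8, with 4 gaps mainly in air. Xyloglucan endotransglucosylase/hydrolases, which remodel the wall, gave 8 of 18 with 7 in air. Cellulose synthase genes gave 9 lower of 21, GDSL lipases 13 of 37 and plasma membrane intrinsic proteins, which are water channels, 5 of 11. Methionine sulfoxide reductases gave 3 of 9, all 3 mainly at R3, with a family median of 0.18. On the higher side, cysteine-rich receptor-like kinases gave 6 higher and 1 lower of 27, all 6 mainly at R3, among them CRK6 at 1.76 in WT air, 5.82 at WT R3, 2.45 in myc2 air and 30.4 at myc2 R3.

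Of the annexins, calcium-dependent membrane-binding proteins, 3 genes picked after their values were seen had lower responses with the gap mainly at R3. ANNAT4 read 10.3 in WT air, 92.1 at WT R3, 8.48 in myc2 air and 16.1 at myc2 R3, ANNAT3 read 1.96, 17.2, 1.94 and 2.86, and ANNAT2 read 12.9, 41.8, 18.7 and 13.9. KNAT1, a homeobox gene of the shoot meristem and stem, read 1.14, 17.5, 6.32 and 14.6 (-2.01), with its gap mainly in air. CRR42 read 32.3, 2.08, 27.7 and 6.72, and PROPEP2, a precursor of a danger-signal peptide, read 0.00, 5.52, 0.0688 and 24.2.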
